A study of Mus musculus with 9 samples.

Results

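Mouse lung tumour cells that had grown for 7 days as spheroids together with tissue-resident macrophages (TRMs, here the alveolar macrophages of the lung) were compared with the same cells grown as spheroids alone. The comparison rests on 6 of the 9 RNA-seq libraries of the study, 3 for each condition, taken by their sample labels. All 12326 tested genes entered the test. The description is mainly of the 11789 tested genes that lie outside 4 gene lists (glycolysis, hypoxia, cell cycle, and extracellular matrix). These are signalling, immune, lineage, adhesion, transport and metabolic genes. Some described genes also stand in 1 of the 4 lists. Among them are Anxa2, Rora and Ddit4 (hypoxia), Ccn2, P4hb and Mmp9 (matrix), Plk2 (cell cycle), and Slc2a1 and Pfkfb2 (glycolysis).

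Alveolar macrophages live in the air spaces, where they depend on GM-CSF made by the epithelium, clear surfactant and particles, and exchange cytokines, prostaglandins and growth factors with epithelial cells. Lung adenocarcinomas of alveolar epithelium often keep parts of the alveolar programme or take on gastric, intestinal and hepatic gene expression, and in advanced states can express squamous or mesenchymal genes. Signalling downstream of receptor tyrosine kinases switches on its own inhibitors, among them Sprouty proteins and dual-specificity phosphatases, so that levels of those transcripts are commonly read beside those of the receptors.

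The cells, named KP-GFP, carry green fluorescent protein and are of the C57BL/6 strain. The labels do not spell out KP. Each spheroid was begun with 2500 KP-GFP cells, either alone or mixed with 5000 TRMs, in round-bottom wells to which cells do not attach (the design text of the series also names Matrigel). The 3 libraries of the remaining group came from KP-GFP cells mixed with 5000 bone-marrow monocytes (BM-Mo) and are used below only for comparison. For each condition 32 spheroids were pooled, dissociated for 20 min at 37 °C and sorted for GFP, so that the RNA is that of GFP-positive cells from many spheroids, after an enzyme step that every group shared. The sort yielded 20000 to 170000 cells per sample, with no number given for each one. Whether the replicates came from separate cultures is not stated. The p-values therefore reflect sample-to-sample spread within each condition, part or all of which may be technical. In sorted bulk RNA, fewer cells of a given state and less RNA per cell cannot be told apart.

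Values are CPM, counts per 1e+06 reads of the scaled library size (TMM scaling), from libraries of 21341370 to 32771448 reads alone and 16001895 to 25240220 reads with TRMs. The first principal component of log2 values (35.9% of the variance) placed the libraries alone between -81.4 and -43.6 and all co-culture libraries between -13.3 and 52.1. Mitochondrially encoded transcripts took 0.523% to 0.667% of reads alone and 0.316% to 0.622% with TRMs, and none of the 8 had a held call. The 14 epithelial markers of the labelled tumour cells had no held call, and their summed level was 16700 to 18900 CPM alone and 16400 to 21000 CPM with TRMs. Among them the adhesion molecule Epcam was at 659.8, 494 and 543 CPM alone against 822, 501 and 583 CPM with TRMs, and keratin 8 (Krt8) at 4929, 4119 and 4901 CPM alone against 5340.2, 4797 and 4312 CPM with TRMs.

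The first question was how many genes differed. With limma, 1257 genes were higher with TRMs (10.2% of those tested) and 1005 were lower (8.15%) at a Benjamini-Hochberg adjusted p under 0.05. With library totals in place of TMM scaling the split was 1003 higher and 1302 lower, with a shift of all genes by -0.0853 on the log2 scale (median). Without alone replicate 1, alone replicate 3 or TRM replicate 2 the total of 2262 calls dropped to 1442, 1391 and 1219. The text below therefore rests on held calls: genes called in the full fit, called in the same direction in each of 9 fits that left out 1 library, and called in the same direction by edgeR on the recovered whole reads. Held calls were found for 637 genes higher with TRMs (5.17%) and 457 lower (3.71%), and in all 1094 the values of the groups did not overlap. The rule for a held call favours such separation, so here and below it describes these genes and is no further evidence. With library totals these held calls numbered 516 higher and 586 lower, 973 of the 1094 being among them. The 4 lists set aside held 166 of them, and 928 genes (481 higher and 447 lower) lay outside. Below, "rose" and "fell" are used only of genes with a held call, and 5.17% and 3.71% are the shares against which each list is to be read. Over all tested genes the median log2 difference was -0.0019.

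**Figure D1:**
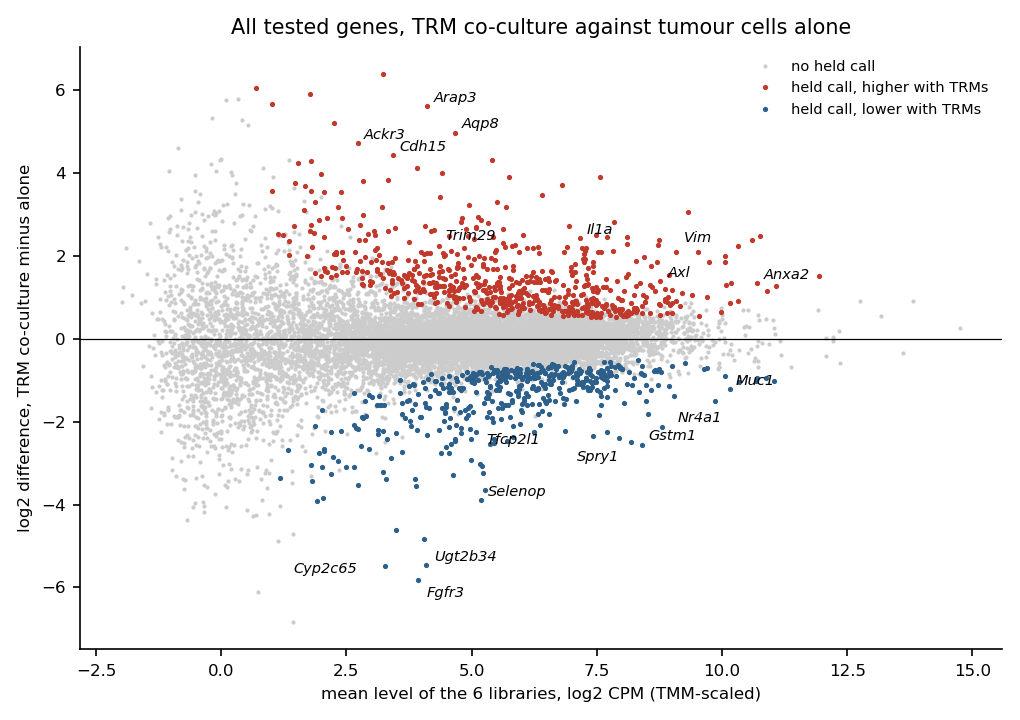
Each point is 1 of 12326 tested genes, with the mean level of the 6 libraries on the horizontal axis (log2 CPM) and the log2 difference, TRM co-culture minus alone, on the vertical axis. Red points are the 637 genes with a held call higher with TRMs and blue points the 457 lower, and several genes described in the text are named.

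Outside the lists set aside, the smallest p-values among risen genes belonged to the cytokine gene Il1a, the M-cadherin gene Cdh15, the muscle-type adenylosuccinate synthase Adssl1 and the water channel Aqp8. Cdh15, an adhesion molecule known from muscle, was at 0.825, 1.11 and 0.916 CPM alone against 16.2, 23.4 and 22.3 CPM with TRMs (log2 4.43, SE 0.29, limma adjusted p = 7.69e-07). Aqp8 (chr7:123462291-123468004) was at 1.14, 2.69 and 1.04 CPM alone against 45.8, 72.4 and 30.03 CPM with TRMs (log2 4.98, SE 0.37, limma adjusted p = 2.86e-06). Both stayed under 3 CPM in every library alone, and the lowest TRM library lay far above the highest library alone. Adssl1, which acts in the purine nucleotide cycle, was at 27.8, 33.4 and 24.4 CPM alone against 139.8, 132 and 121 CPM with TRMs (4.62-fold higher, limma adjusted p = 1.84e-06). Odaph, known from tooth enamel, was 6.26-fold higher and the kallikrein-related protease Klk6 9.03-fold higher. Ccbe1, which is known for a part in lymphatic growth, was 4.14-fold higher, the ARF exchange factor Cyth4 5.56-fold higher, and the NAD-synthesising enzyme Nmnat2 14.3-fold higher. Klra4 was at 0.513, 3.46 and 2.24 CPM alone against 22.7, 29.1 and 32.5 CPM with TRMs. Its name is that of a natural killer cell receptor family.

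Among fallen genes the smallest p-values belonged to Gstm1, Paqr8, Spry1, Tfcp2l1 and Dusp16, most of which are described with their groups below. Selenop encodes selenoprotein P, a secreted carrier of selenium. Its values were 66.2, 67.3 and 71 CPM alone against 7.23, 3.62 and 3.68 CPM with TRMs (log2 -3.89, SE 0.39, limma adjusted p = 3.42e-05). Every TRM library was under 8 CPM, against at least 66.2 CPM in each library alone. Selenop overlaps Ccdc152 on the opposite strand. Paqr8, a membrane progesterone receptor, was at 84, 123 and 94.1 CPM alone against 21.3, 24.7 and 26.1 CPM with TRMs (4.13-fold lower, limma adjusted p = 1.15e-05). Akap13, an anchoring protein and exchange factor of small GTPases, was 2.28-fold lower, and Hhex, a homeobox factor of endoderm and liver, was 11.7-fold lower. Pamr1, a secreted protease-like protein, was at 31.8, 7.99 and 22.5 CPM alone against 3.41, 1.15 and 0.102 CPM with TRMs, with alone replicate 2 the lowest of its group.

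**Figure D2:**
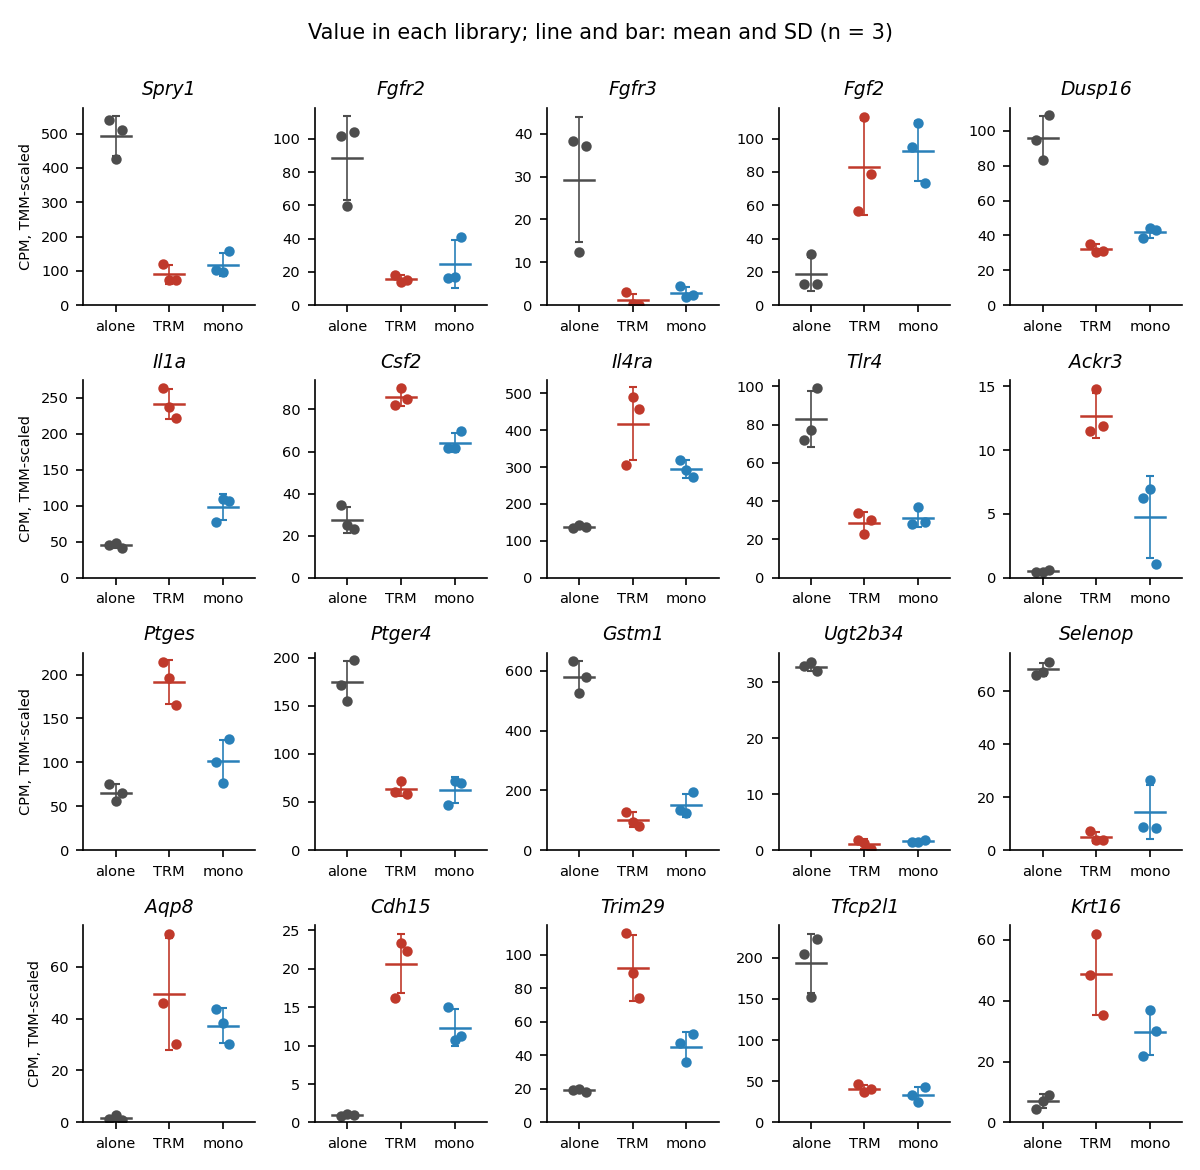
Each panel shows 1 gene, with the value in CPM of each library as a point for tumour cells alone (grey), with TRMs (red) and with monocytes (blue). Horizontal lines are group means and vertical bars the SD of 3 libraries. In all 20 panels the TRM and alone points do not overlap.

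Growth factor signalling was the first group considered. Of the 21 tested FGF ligands, receptors and Sprouty or Spred inhibitors, 5 fell and 1 rose, and the median log2 difference was -0.44. Spry1 (chr3:37639947-37644598), a feedback inhibitor of receptor tyrosine kinase signalling, was at 539, 427 and 511 CPM alone against 121, 73.3 and 74.2 CPM with TRMs (log2 -2.49, SE 0.22, 95% interval -2.96 to -2.02, limma adjusted p = 1.15e-05). The epithelial FGF receptor Fgfr2 was at 102, 59.5 and 104 CPM alone against 18.1, 13.6 and 15.3 CPM with TRMs (5.5-fold lower, limma adjusted p = 0.000214). Fgfr3, another receptor of the family, was at 38.3, 12.5 and 37.1 CPM alone against 2.97, 0.324 and 0.102 CPM with TRMs, from 2366 reads alone in all and 54 with TRMs (log2 -5.82, SE 0.92, limma adjusted p = 0.000767). The receptor genes thus fell with their inhibitor, and the lowest library alone stood above the highest with TRMs for each. Flrt3, a membrane partner of FGF receptors, was 2.03-fold lower, and the ligand Fgf1 2.16-fold lower. The member that rose was the ligand Fgf2, at 12.7, 30.6 and 12.7 CPM alone against 56.7, 113 and 78.7 CPM with TRMs (4.68-fold higher, limma adjusted p = 0.000437). Fgf2 overlaps Nudt6 on the opposite strand and one annotated Fgfr2 transcript shares sequence with Ctbp2. Reads from such stretches could belong to either gene.

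Outputs of the ERK pathway and MAP kinase phosphatases moved in both directions, with 6 of 38 risen and 6 fallen. The phosphatase gene Dusp16, which acts on JNK and p38, was at 94.8, 83.3 and 109 CPM alone against 35.3, 30.5 and 31.2 CPM with TRMs (log2 -1.56, SE 0.15, limma adjusted p = 2.87e-05). Dusp5, an inactivator of nuclear ERK, was 2.03-fold lower, and Dusp8 1.9-fold lower. The cytoplasmic ERK phosphatase Dusp7 went the other way, at 78.3, 118 and 81.3 CPM alone against 221, 233 and 219.6 CPM with TRMs (2.48-fold higher, limma adjusted p = 0.000246), as did the RAS GTPase-activating protein Rasa4 (4.41-fold higher). Different phosphatases of the same family therefore lay on both sides of the values alone. The tyrosine phosphatase Ptpn5 was at 0.0669, 0.0226 and 0.796 CPM alone against 4.79, 7.87 and 6.82 CPM with TRMs, and the small MAF protein gene Mafk was 1.73-fold lower. Among the 18 EGF-family genes, betacellulin (Btc) rose 2.37-fold and the receptor Erbb3 fell, from 280.3 ± 46 to 138 ± 14.9 CPM (2.02-fold lower, limma adjusted p = 0.00296).

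Of 33 other receptor tyrosine kinases and their ligands 4 rose and 3 fell (3 and 4 with library totals). Axl, the receptor of GAS6, was at 92.7, 251 and 215 CPM alone against 381, 819 and 752 CPM with TRMs (3.6-fold higher, limma adjusted p = 0.00306). The neurotrophic factor receptor Ret was at 45.5, 38.7 and 31.7 CPM alone against 104, 116 and 79.1 CPM with TRMs (2.58-fold higher, limma adjusted p = 0.000425). The ligand Pdgfa, which acts on fibroblasts, was at 59.5, 59.4 and 58.6 CPM alone against 231, 214 and 177 CPM with TRMs (3.48-fold higher, limma adjusted p = 0.000214). Its values alone were within 1 CPM of each other, and every TRM library lay far above them. The VEGF receptor Flt1 was 2.38-fold higher. The hepatocyte growth factor receptor Met (1.73-fold lower), the KIT ligand Kitl (2.3-fold lower) and the WNT5A receptor Ror1 (2.12-fold lower) fell. In the IGF and insulin list 3 of 14 genes rose and 1 fell (3 and 4 with library totals). The binding proteins Igfbp3 (2.14-fold higher) and Igfbp4 (from 1262 ± 219.7 to 3048 ± 364 CPM) and the RNA-binding protein Igf2bp1 (2.2-fold higher) rose, and the adaptor Irs2 was at 512, 545 and 561 CPM alone against 216, 252 and 222 CPM with TRMs (2.35-fold lower, limma adjusted p = 0.000143). Of 40 PI3K, AKT and mTOR genes the mTOR inhibitor Deptor (4.62-fold lower, from 33.2 ± 4.71 to 7.37 ± 2.09 CPM) and the regulatory subunit Pik3r3 (2.31-fold lower, with sequence shared with Gm49337) fell and none rose.

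Ephrins and guidance molecules, which steer axons and cell sorting, had 7 risen and 4 fallen members of 53. The ephrins Efna1 (1.7-fold higher), Efna3 (4.31-fold higher) and Efnb1 (2.02-fold higher) and the semaphorin Sema7a (2.43-fold higher) rose. The secreted guidance cue netrin 1 (Ntn1) was at 18.4, 11.8 and 19.7 CPM alone against 2.85, 5.1 and 1.93 CPM with TRMs (5.34-fold lower, limma adjusted p = 0.000723). The secreted class 3 semaphorins Sema3a (2.61-fold lower) and Sema3c (1.83-fold lower) and the plexin Plxnb1 (1.72-fold lower) also fell.

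Cytokines and their receptors were examined next, since the added cells are sources and targets of cytokines. Il1a (chr2:129299610-129309972) encodes interleukin-1 alpha, a cytokine that epithelial cells store and release on damage. It was at 44.7, 47.8 and 41.8 CPM alone against 263, 238 and 223 CPM with TRMs (log2 2.43, SE 0.15, 95% interval 2.10 to 2.76, limma adjusted p = 7.5e-07). The receptor of the cytokine moved the other way: Il1r1 was at 196, 134 and 184 CPM alone against 87.9, 81 and 99.7 CPM with TRMs (1.9-fold lower, limma adjusted p = 0.00177). The signalling kinase Irak2 fell with it (1.93-fold lower), and the interleukin-18 receptor subunit Il18rap rose (2.32-fold higher). These were the 2 risen and 2 fallen genes of 19 in the interleukin-1 family list, where the ligand lay higher and its receptor lower.

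The sequence just before the Il1a start is shown because this gene had the smallest p-value of the genes described here. It comes from RefSeq promoters on GRCm38.p6, 250 bases upstream of the start (chr2:129309973-129310222, minus strand), 5′ to 3′ in the direction of the gene, with a match to the AP-1 motif in capitals.
Il1a: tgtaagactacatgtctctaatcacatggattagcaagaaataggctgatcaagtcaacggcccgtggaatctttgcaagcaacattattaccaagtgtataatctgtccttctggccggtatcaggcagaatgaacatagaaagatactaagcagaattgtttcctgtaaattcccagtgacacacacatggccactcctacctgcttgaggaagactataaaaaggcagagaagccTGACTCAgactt
The motif searched was TGANTCA, where N is any base, on both strands. It lies 12 to 6 bases before the start in Il1a. A promoter entry was found for 505 of the 637 genes that rose, 334 of the 457 that fell and 9765 of all genes tested, and the motif stood in the 250 bases of 10.1%, 7.49% and 6.14% of them. A match is a description of the sequence and not a site of binding.

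Of 24 chemokines and their receptors 2 rose and 3 fell. Ackr3, a scavenging receptor of CXCL12, had values of 0.424, 0.43 and 0.586 CPM alone against 11.5, 14.8 and 11.9 CPM with TRMs (37 reads over the group alone and 725 with TRMs; limma adjusted p = 0.000183). The neutrophil attractant Cxcl3 was 3.61-fold higher. The fallen members were Ccl20, which attracts CCR6-bearing cells (2.43-fold lower), the interferon-induced Cxcl10 (3.49-fold lower) and the membrane-bound Cxcl16 (1.62-fold lower, which overlaps Zmynd15 on the opposite strand). In the list of colony-stimulating factors and other secreted cytokines, Csf2, which encodes GM-CSF, the factor alveolar macrophages depend on, was at 34.5, 25 and 23.1 CPM alone against 82.1, 90.4 and 84.9 CPM with TRMs (3.16-fold higher, limma adjusted p = 3.13e-05). Il24 rose as well, at 1, 0.34 and 0.916 CPM alone against 5.22, 3.8 and 2.83 CPM with TRMs, and Edn1, the precursor of the peptide endothelin 1, was at 65.3, 56.3 and 85.2 CPM alone against 18.1, 17.1 and 15.3 CPM with TRMs (4.05-fold lower, limma adjusted p = 0.000494). These 3 were the held calls among 26 tested members, whose median log2 difference was 0.50.

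Cytokine receptors and JAK-STAT genes had 6 risen members of 53 and none fallen. The interleukin-4 receptor chain Il4ra was at 133, 144 and 137 CPM alone against 305, 489.6 and 458 CPM with TRMs (2.96-fold higher, limma adjusted p = 4.33e-05). The kinase Jak3 was at 98.5, 70.9 and 97.3 CPM alone against 189, 229 and 220.1 CPM with TRMs (2.41-fold higher, limma adjusted p = 0.000261). The feedback inhibitor Socs3 was 2.09-fold higher and its relative Cish 1.79-fold higher, and the receptors Epor and Cntfr rose from levels near 1 CPM (6.61-fold higher and 5.76-fold higher). Part of the Jak3 transcript sequence is shared with its neighbour Insl3. In the TNF family 4 of 37 rose, among them the adaptor Traf1 (2.46-fold higher), the decoy receptor Tnfrsf23 (1.9-fold higher, a near copy of Tnfrsf22), the receptor Relt (3.06-fold higher) and the necroptosis effector Mlkl (2.38-fold higher). The death receptor Tnfrsf21 fell, from 307 ± 6.67 to 166 ± 13.1 CPM (1.85-fold lower).

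Of 41 NF-kappaB subunits, inhibitors and feedback genes 1 rose and 3 fell. Tlr4, the receptor for bacterial lipopolysaccharide, was at 71.9, 77.1 and 99.3 CPM alone against 33.6, 22.7 and 29.99 CPM with TRMs (2.89-fold lower, limma adjusted p = 0.000166). Tlr3, which senses double-stranded RNA, was at 72.6, 69.7 and 72.4 CPM alone against 26.7, 20.8 and 26.8 CPM with TRMs (2.91-fold lower, limma adjusted p = 0.000461). The adaptor protease Malt1 was 2.12-fold lower, and the TNF-induced gene Tnfaip2 rose 1.54-fold. The interferon list, with 1 risen and 2 fallen of 52, stood near or below the shares of all genes. Its members with a held call included Isg20 (1.84-fold higher) and Ifit1bl1 (10.5-fold lower, with sequence shared with Ifit1bl2). In the MHC class I list 1 of 26 had a held call, the non-classical H2-M3 (3.21-fold higher).

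Among 38 surface ligands read by immune cells, 2 rose and 3 fell. The checkpoint ligand Cd276 (B7-H3) was at 114, 138 and 142 CPM alone against 254, 349 and 301 CPM with TRMs (2.28-fold higher, limma adjusted p = 0.00214), and the galectin Lgals1 was at 31.8, 129 and 59.5 CPM alone against 166, 277 and 249.8 CPM with TRMs (3.61-fold higher, limma adjusted p = 0.00513). The ATP-hydrolysing enzyme Entpd2 (4.41-fold lower), the galectin Lgals4 (3.28-fold lower) and the adhesion molecule Nectin3 (1.76-fold lower) fell. Complement and coagulation genes had 3 risen and 1 fallen of 22. Protein C (Proc, 2.81-fold higher) and its receptor Procr, at 30.6, 39.2 and 29.5 CPM alone against 77.5, 88.7 and 91.2 CPM with TRMs (2.61-fold higher, limma adjusted p = 0.000146), rose together, as did the complement receptor C3ar1 (3.04-fold higher). The protease-activated receptor F2rl1 fell from 62.3 ± 5.1 to 22.1 ± 2.12 CPM (2.83-fold lower).

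Transcripts of other cells were looked at beside these immune genes, because a sort on GFP can let other cells or their RNA through. Of 25 tested macrophage and leukocyte markers 2 had a held call, both higher with TRMs, and their summed level was 193 to 282 CPM alone and 235 to 409 CPM with TRMs. These were the mannose receptor Mrc1, at 4.98, 5.37 and 5.03 CPM alone against 22.4, 39.8 and 36.5 CPM with TRMs, and the tetraspanin Cd53, at 31.8, 22.7 and 25 CPM alone against 65.5, 67.7 and 59.6 CPM with TRMs. The leukocyte antigen Ptprc was at 3.46, 1.43 and 0.916 CPM alone against 4.47, 0.501 and 0.875 CPM with TRMs, and the macrophage lysosomal protein Cd68 at 0.959, 1.2 and 0.976 CPM alone against 3.79, 1.27 and 1.81 CPM with TRMs. Neither had a held call. The receptor Csf1r was at 2.25, 3.78 and 3.02 CPM alone against 6.73, 5.33 and 5.68 CPM with TRMs (limma adjusted p = 0.0613). It had no held call either. With overlap between the groups, the marker Lyz2 lay higher with TRMs (log2 1.03) and Cd14 lower (log2 -0.43). The median log2 difference of the 25 markers was 0.493, against -0.0019 over all tested genes. The summed level of 13 alveolar macrophage markers was 4100 to 5850 CPM alone and 7660 to 10900 CPM with TRMs, so that the groups did not overlap. Most of it was Spp1, which encodes the secreted protein osteopontin and is also made by epithelial cells, at 5074, 3740.4 and 5506 CPM alone against 9314, 7234 and 10472 CPM with TRMs (limma adjusted p = 0.0121, and 0.0625 without TRM replicate 3, so not a held call). Of these markers, the 3 with a held call were Mrc1 again, the keratin Krt79 (3.34-fold higher) and Plet1 (1.92-fold lower), and the defining lectin Siglecf was at 1.05, 1.47 and 1.79 CPM alone against 0.594, 0.147 and 0.143 CPM with TRMs. The secreted protein Chil3, abundant in alveolar macrophages, was at 3.06, 12.7 and 14.6 CPM alone against 6.41, 0.796 and 7.92 CPM with TRMs. Of 10 monocyte and granulocyte markers F13a1 (0.825, 0.747 and 1.31 CPM alone against 9.67, 17.3 and 13.1 CPM with TRMs), Ly6c1 (5.48-fold higher) and Mmp9 (19-fold higher) rose, and the summed level was 2600 to 3600 CPM alone and 3250 to 6160 CPM with TRMs. The 1 tested lymphocyte marker and the 8 of fibroblasts and endothelium had no held call, and the latter summed to 12.2 to 15.7 CPM alone and 13.5 to 23.4 CPM with TRMs. Ly6c1 is also made by epithelium and endothelium. The part of these markers in the results above was not tested.

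Prostaglandin metabolism is another route by which epithelial cells and macrophages exchange signals. Of 30 genes of prostaglandin and leukotriene synthesis and reception 3 rose and 5 fell. Ptges, the inducible prostaglandin E synthase, was at 75.3, 56.4 and 64.9 CPM alone against 214, 197 and 165 CPM with TRMs (log2 1.55, SE 0.18, limma adjusted p = 0.000111). The prostaglandin uptake carrier Slco2a1 was at 16.5, 11.6 and 13.1 CPM alone against 53.5, 57.2 and 46.4 CPM with TRMs (3.84-fold higher, limma adjusted p = 0.000104). The receptor Ptger4, which binds prostaglandin E2, was at 171, 154 and 198 CPM alone against 59.9, 71.4 and 58.6 CPM with TRMs (2.75-fold lower, limma adjusted p = 0.000121). The synthase and the carrier rose and the receptor fell. The exporter Abcc4 (2.67-fold lower), the prostaglandin-reducing carbonyl reductases Cbr1 (2.3-fold lower) and Cbr3 (5.32-fold lower) and the amide hydrolase Faah (1.78-fold lower) fell, and the epoxide hydrolase Ephx2 rose (5.46-fold higher). Ptger4 overlaps Ttc33 on the opposite strand.

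In the TGF-beta, activin and BMP list 7 of 47 rose and 1 fell, with a median log2 difference of 0.078. Inhba, which encodes the activin A subunit, was at 31, 40.6 and 32.7 CPM alone against 70.3, 95.2 and 116 CPM with TRMs (2.66-fold higher, limma adjusted p = 0.000947). The target genes Id1 (2.01-fold higher) and Id3 (4.37-fold higher), the ligand Tgfb1 (2.6-fold higher) and the inhibitors Smad7 (1.75-fold higher), Pmepa1 (1.73-fold higher) and Fstl3 (6.12-fold higher) rose. The repressor Tgif1 fell (1.72-fold lower).

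WNT genes split, 4 risen and 5 fallen of 43. Lgr6, a receptor of R-spondins that marks stem cells of skin and airway, was at 8.01, 12.7 and 10.1 CPM alone against 37.3, 57.7 and 46.7 CPM with TRMs (4.61-fold higher, limma adjusted p = 2.87e-05). Its relative Lgr4 was at 79.2, 69.2 and 83.8 CPM alone against 36.8, 26.3 and 29.4 CPM with TRMs (2.53-fold lower, limma adjusted p = 0.00105). These R-spondin receptors moved in opposite directions, with no overlap between groups in either. Sp5, a direct WNT target, fell from 66.9 ± 15.5 to 17.7 ± 3.09 CPM (3.74-fold lower), as did the ligase Rnf43 (1.82-fold lower), which removes Frizzled receptors and is itself a WNT target, the ligand Wnt4 (10.3-fold lower), and the polarity cadherin Celsr2 (3.37-fold lower). The receptor Fzd8 (2.75-fold higher), the inhibitor Kremen1 (1.78-fold higher) and the transcription factor Tcf7 (2.91-fold higher) rose. Among 36 Notch genes the ligand Dll1 was at 7.96, 4.46 and 8.67 CPM alone against 31.8, 32.4 and 22.7 CPM with TRMs (4.23-fold higher, limma adjusted p = 0.000336), the target Nrarp rose 2.31-fold, and the ligase Dtx4 fell 1.88-fold.

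The YAP-TEAD list had 3 risen and 3 fallen of 42. The classical target genes Ankrd1, at 431, 589 and 566 CPM alone against 194, 169 and 197 CPM with TRMs (2.81-fold lower, limma adjusted p = 0.00141), and Ccn2 (1.92-fold lower) fell, as did the upstream scaffold Wwc1 (2.23-fold lower). Amotl1, a YAP-binding angiomotin, rose (2.2-fold higher), as did the forkhead factor Foxf2 (2.91-fold higher) and Axl, already described.

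Of 41 nuclear receptors and cofactors 5 fell and 1 rose, with a median log2 difference of -0.44. Nr3c2, the mineralocorticoid receptor, was at 33.8, 31.9 and 35.8 CPM alone against 13.2, 9.99 and 9.51 CPM with TRMs (3.14-fold lower, limma adjusted p = 0.000158). Rora (2.04-fold lower) and the coactivator Ncoa3 (1.88-fold lower, which overlaps Sulf2 on the opposite strand) also fell, and Esrra, a regulator of mitochondrial genes, rose 1.65-fold. The immediate early receptor Nr4a1 was at 1191, 1325 and 1598 CPM alone against 435, 531 and 486 CPM with TRMs (2.82-fold lower, limma adjusted p = 0.000116). Of 36 immediate early and heat shock genes, which respond to cell dissociation, 2 rose (Socs3 and Hspa1a) and 3 fell (Nr4a1, Atf3 and Btg2), and the summed level was 36200 to 47000 CPM alone and 34700 to 36400 CPM with TRMs. Their part in the fall of Nr4a1 was not tested. In the clock list the period gene Per2, at 37.8, 47.8 and 52.1 CPM alone against 10.5, 18.8 and 15 CPM with TRMs (3.17-fold lower, limma adjusted p = 0.00107), was among the 3 of 24 genes that fell, and none rose.

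The identity of the tumour epithelium was examined with lists of lineage factors and products. Of 64 epithelial and endodermal transcription factors 9 fell and 2 rose, with a median log2 difference of -0.38. Tfcp2l1 (chr1:118627945-118685168), a grainyhead-related factor of ducts and pluripotent cells, was at 204, 152 and 222 CPM alone against 46.2, 36.6 and 40.05 CPM with TRMs (log2 -2.22, SE 0.21, 95% interval -2.67 to -1.78, limma adjusted p = 1.86e-05). The epithelial ETS factor Ehf was at 296, 206 and 330.2 CPM alone against 129.6, 84.7 and 103 CPM with TRMs (2.61-fold lower, limma adjusted p = 0.00183), and its relative Elf1, which overlaps Wbp4 on the opposite strand, was 1.71-fold lower. The endodermal factors Onecut2 (2.24-fold lower) and Foxa1 (1.61-fold lower), the gut factor Klf5 (1.7-fold lower), the ciliated cell factor Foxj1 (2.98-fold lower) and the membrane-bound factor Creb3l1 (6.02-fold lower) fell too. The basal cell factor Trp63 (p63) was at 6.05, 2.83 and 4.73 CPM alone against 9.48, 19.4 and 21.3 CPM with TRMs (3.65-fold higher, limma adjusted p = 0.00474), and Cebpd, which overlaps Spidr, rose 1.87-fold.

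Gastric, intestinal and hepatic products had the lowest median log2 difference of the 53 lists described, -1.06, with 10 of 52 fallen and 1 risen. Rbp4, the retinol carrier that liver secretes, was at 53.7, 34.8 and 46.9 CPM alone against 15, 8.4 and 8.08 CPM with TRMs (4.41-fold lower, limma adjusted p = 0.000241). The gastric trefoil peptide Tff2 was at 10.3, 11 and 11.6 CPM alone against 3.22, 0.678 and 0.998 CPM with TRMs (8.47-fold lower, limma adjusted p = 0.00142). For both, alone and TRM libraries did not overlap. The inter-alpha-trypsin inhibitor chain Itih2 fell 4.77-fold, the haem carrier Hpx 3.95-fold, the mucin Muc5b 3.16-fold and the antibody transporter Pigr 6.76-fold. The membrane mucin Muc1 fell 2.33-fold, to a level with TRMs that was still 958, 584 and 549 CPM. The lung surfactant protein Sftpd, which the list also holds, was at 47, 22.6 and 38.6 CPM alone against 8.98, 4.98 and 2.99 CPM with TRMs (6.74-fold lower, limma adjusted p = 0.00202). Sftpd and Muc1 are counted both here and in the alveolar and airway list below, so not all fallen members are particular to gut or liver. The member that rose was the glycosyltransferase B3gnt3 (1.59-fold higher).

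Alveolar and airway genes moved both ways, 3 risen and 4 fallen of 33. The members that rose were the caveolin Cav1, at 12.5, 26.1 and 12.2 CPM alone against 53.3, 82.1 and 111 CPM with TRMs (4.96-fold higher, limma adjusted p = 0.000245), the water channel Aqp1 (4.37-fold higher) and the membrane protein Emp3 (2.87-fold higher). All 3 are made in alveolar type I cells and also by mesenchymal and other cells. The zinc and manganese importer Slc39a8 was at 108, 72.3 and 103 CPM alone against 22.9, 15.8 and 15.8 CPM with TRMs (5.21-fold lower, limma adjusted p = 4.6e-05), and it fell with Sftpd, Muc1 and Foxj1.

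**Figure D3:**
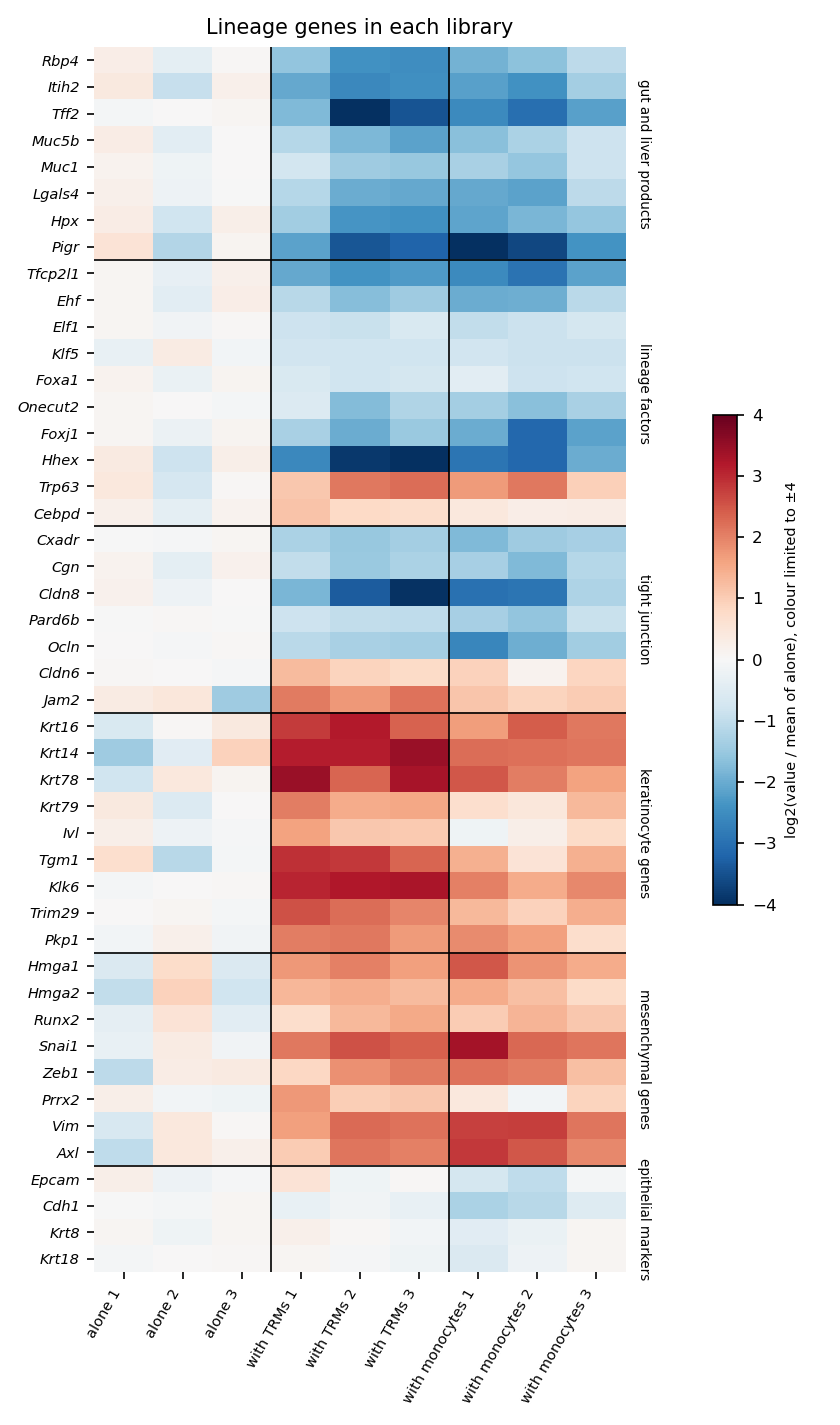
Rows are genes in blocks of lineage products, lineage factors, junction, keratinocyte, mesenchymal and epithelial marker genes, and columns are the 9 libraries. Colour gives log2 of the value over the mean of the 3 libraries alone, red higher and blue lower, limited to 4 in either direction. Gut, liver and lineage factor rows are blue in the TRM columns except Trp63 and Cebpd, keratinocyte and mesenchymal rows are red, and Epcam, Cdh1, Krt8 and Krt18 are pale. The rows were picked by hand with their values known, so the even colour of a block follows from that choice. Not drawn are Krt23, Pof1b, Synm and Glis3, which fell, and B3gnt3, which rose. In the full lists 22 of 32 keratin and cornified envelope genes and 22 of 30 mesenchymal regulators had no held call.

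Keratins and cornified envelope genes, which mark stratified epithelium, had 7 risen and 3 fallen members of 32. Keratin 16 was at 4.53, 7.13 and 9.12 CPM alone against 48.5, 62 and 35.4 CPM with TRMs (7.12-fold higher, limma adjusted p = 3.67e-05). Keratin 14, the basal keratin, was at 0.245, 0.476 and 1.25 CPM alone against 5.79, 5.75 and 7.19 CPM with TRMs (11.8-fold higher, limma adjusted p = 0.000773). Involucrin (Ivl), a cornified envelope protein, was at 266, 197 and 219 CPM alone against 697, 476 and 468 CPM with TRMs (2.38-fold higher, limma adjusted p = 0.00177). Krt14 and Krt16 share sequence with each other and with Krt17, so reads could be split between them. Keratins 78 (8.65-fold higher) and 79 (3.34-fold higher) and the cross-linking enzyme Tgm1 (7.28-fold higher) rose, and so did vimentin (4.24-fold higher), the filament of mesenchymal cells. Keratin 23 was at 387, 389 and 458 CPM alone against 95.8, 73.3 and 69.4 CPM with TRMs (5.21-fold lower, limma adjusted p = 0.000561), and Pof1b (3.04-fold lower) and synemin (Synm, 11.5-fold lower) fell. Outside the list, Trim29, a protein of squamous epithelium, was at 19.4, 19.99 and 18 CPM alone against 113, 89.2 and 74.1 CPM with TRMs (4.74-fold higher, limma adjusted p = 8.38e-06).

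The 250 bases before the Ivl start (RefSeq, GRCm38.p6, chr3:92573736-92573985, minus strand) also hold the AP-1 motif, shown in capitals, 116 to 110 bases before the start. Ivl is shown for that match, and was chosen after its values were seen.
Ivl: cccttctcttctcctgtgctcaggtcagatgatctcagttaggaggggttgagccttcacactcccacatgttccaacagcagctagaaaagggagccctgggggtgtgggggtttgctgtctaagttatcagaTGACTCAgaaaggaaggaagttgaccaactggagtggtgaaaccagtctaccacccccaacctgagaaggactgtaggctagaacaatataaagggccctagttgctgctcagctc
Il1a and Ivl are 2 of the 51 risen genes with this motif in the window. The window lies on the strand of the gene in both.

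Factors of mesenchymal and stem-like states had 7 risen and 1 fallen of 30 (4 and 1 with library totals). The chromatin protein Hmga1, which shares most of its transcript with Hmga1b, was at 44.6, 109.5 and 44.9 CPM alone against 221, 268 and 206 CPM with TRMs (3.82-fold higher, limma adjusted p = 0.000908). Its relative Hmga2 (3.1-fold higher), the bone factor Runx2 (2.36-fold higher), the homeobox factor Prrx2 (2.42-fold higher) and Glis1 (4.63-fold higher) rose. The E-cadherin repressor Snai1 was at 0.692, 1.06 and 0.766 CPM alone against 3.6, 4.86 and 4.38 CPM with TRMs (5.14-fold higher), and Zeb1, another such repressor, at 6, 15.4 and 16 CPM alone against 21.9, 44.2 and 53.1 CPM with TRMs (3.26-fold higher). The E-cadherin gene itself, Cdh1, had values of 1626, 1566 and 1757 CPM alone against 1336, 1512 and 1342 CPM with TRMs and had no held call (limma adjusted p = 0.401). Glis3, a factor of pancreas and thyroid, was at 142, 132 and 165 CPM alone against 38.4, 44.5 and 41.6 CPM with TRMs (3.52-fold lower, limma adjusted p = 4.63e-05).

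Of 42 tight junction and polarity genes 8 fell and 3 rose, with a median log2 difference of -0.43. Cxadr, an adhesion protein of tight junctions, was at 751, 727 and 795 CPM alone against 312, 266 and 298 CPM with TRMs (log2 -1.38, SE 0.14, limma adjusted p = 3.69e-05). The claudin Cldn8, which limits sodium leak, was at 70.2, 53.9 and 63 CPM alone against 17.6, 6.16 and 4.01 CPM with TRMs (8.18-fold lower, limma adjusted p = 0.00113). Claudin 6, known from embryonic epithelium, was at 168, 162 and 155 CPM alone against 393, 300.1 and 278 CPM with TRMs (1.98-fold higher, limma adjusted p = 0.00341). The scaffold Cgn (2.34-fold lower), Ocln (2.37-fold lower), Marveld2 (1.95-fold lower), Cldn23 (2.47-fold lower), Magi3 (1.83-fold lower) and the polarity protein Pard6b (1.92-fold lower) fell, and Jam2 (4.61-fold higher) and Marveld1 (1.98-fold higher) rose. Cxadr overlaps Btg3 on the opposite strand.

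The list of adherens junctions and desmosomes, which also holds connexins and receptor phosphatases, had 6 risen and 4 fallen genes of 41. The connexins Gja1, at 41.7, 82.4 and 69.6 CPM alone against 166, 284 and 277 CPM with TRMs (3.79-fold higher, limma adjusted p = 0.000357), and Gjc1 (2.31-fold higher) rose. Plakophilin 1 (Pkp1), a desmosomal plaque protein of squamous epithelium, was at 15.7, 19.8 and 15.5 CPM alone against 70.1, 73 and 55.3 CPM with TRMs (3.89-fold higher, limma adjusted p = 0.000231). Desmoglein 2 (Dsg2), the desmosomal cadherin of simple epithelium, was at 187, 208 and 199 CPM alone against 103, 92.1 and 92.2 CPM with TRMs (2.07-fold lower, limma adjusted p = 0.000137). The receptor phosphatases Ptprf (1.66-fold lower) and Ptprk (1.42-fold lower), which sit at cell contacts, fell.

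Integrins and other adhesion receptors had 10 risen and 4 fallen members of 74. Itgb3, the beta chain of the vitronectin receptor, was at 66.7, 81.5 and 83.1 CPM alone against 232, 316 and 244 CPM with TRMs (3.41-fold higher, limma adjusted p = 7.2e-05). Itga5, the alpha chain of the fibronectin receptor, was at 36.8, 81.9 and 50.9 CPM alone against 165, 352 and 252 CPM with TRMs (4.57-fold higher, limma adjusted p = 0.000617). The hemidesmosome chain Itgb4 was at 248, 261 and 236 CPM alone against 577, 604 and 493 CPM with TRMs (2.24-fold higher, limma adjusted p = 5.83e-05). Basigin (Bsg), a partner of monocarboxylate transporters, was 2.55-fold higher, and Itgb5 and Itga7 were 1.85-fold higher and 6.04-fold higher. Itga1, a chain of a collagen receptor that shares sequence with Gm49395, fell (4.66-fold lower), as did Mcam (1.98-fold lower) and the tetraspanin Tspan13 (3.04-fold lower).

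Actin-binding and small GTPase genes formed the largest list with 18 risen and 8 fallen of 181. Add2, beta-adducin, which caps actin at the membrane skeleton, was at 23.7, 27.2 and 22.1 CPM alone against 99.7, 139 and 99.5 CPM with TRMs (log2 2.20, SE 0.17, limma adjusted p = 3.1e-06). Arap3, a GTPase-activating protein for small GTPases, was at 0.245, 2.33 and 0.406 CPM alone against 28.1, 54.3 and 18.3 CPM with TRMs (69 reads over the group alone and 1819 with TRMs, limma adjusted p = 0.000101). Pdlim2 (2.89-fold higher) and the severing protein gelsolin (Gsn, 2.03-fold higher) rose. Myosins of vesicle transport lay lower: Myo6 was at 107, 63 and 106 CPM alone against 30.5, 16.9 and 17.2 CPM with TRMs (4.32-fold lower, limma adjusted p = 0.000615), and Myo5c was 3.84-fold lower. The exchange factor Dock4 (2.46-fold lower) and the atypical GTPase Rhou (1.6-fold lower) fell. Annexins, which bind membranes when calcium rises, had 5 risen members and none fallen among 23 S100 and annexin genes. Anxa2, 1 of these 5, is also a member of the hypoxia list. Anxa2 was at 881, 1149.9 and 799.9 CPM alone against 2563, 2401 and 2192 CPM with TRMs (2.55-fold higher, limma adjusted p = 0.000106), and Anxa5, Anxa6, Anxa8 and Anxa9 were 1.82, 1.63, 2.59 and 2.05 times as high.

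**Figure D4:**
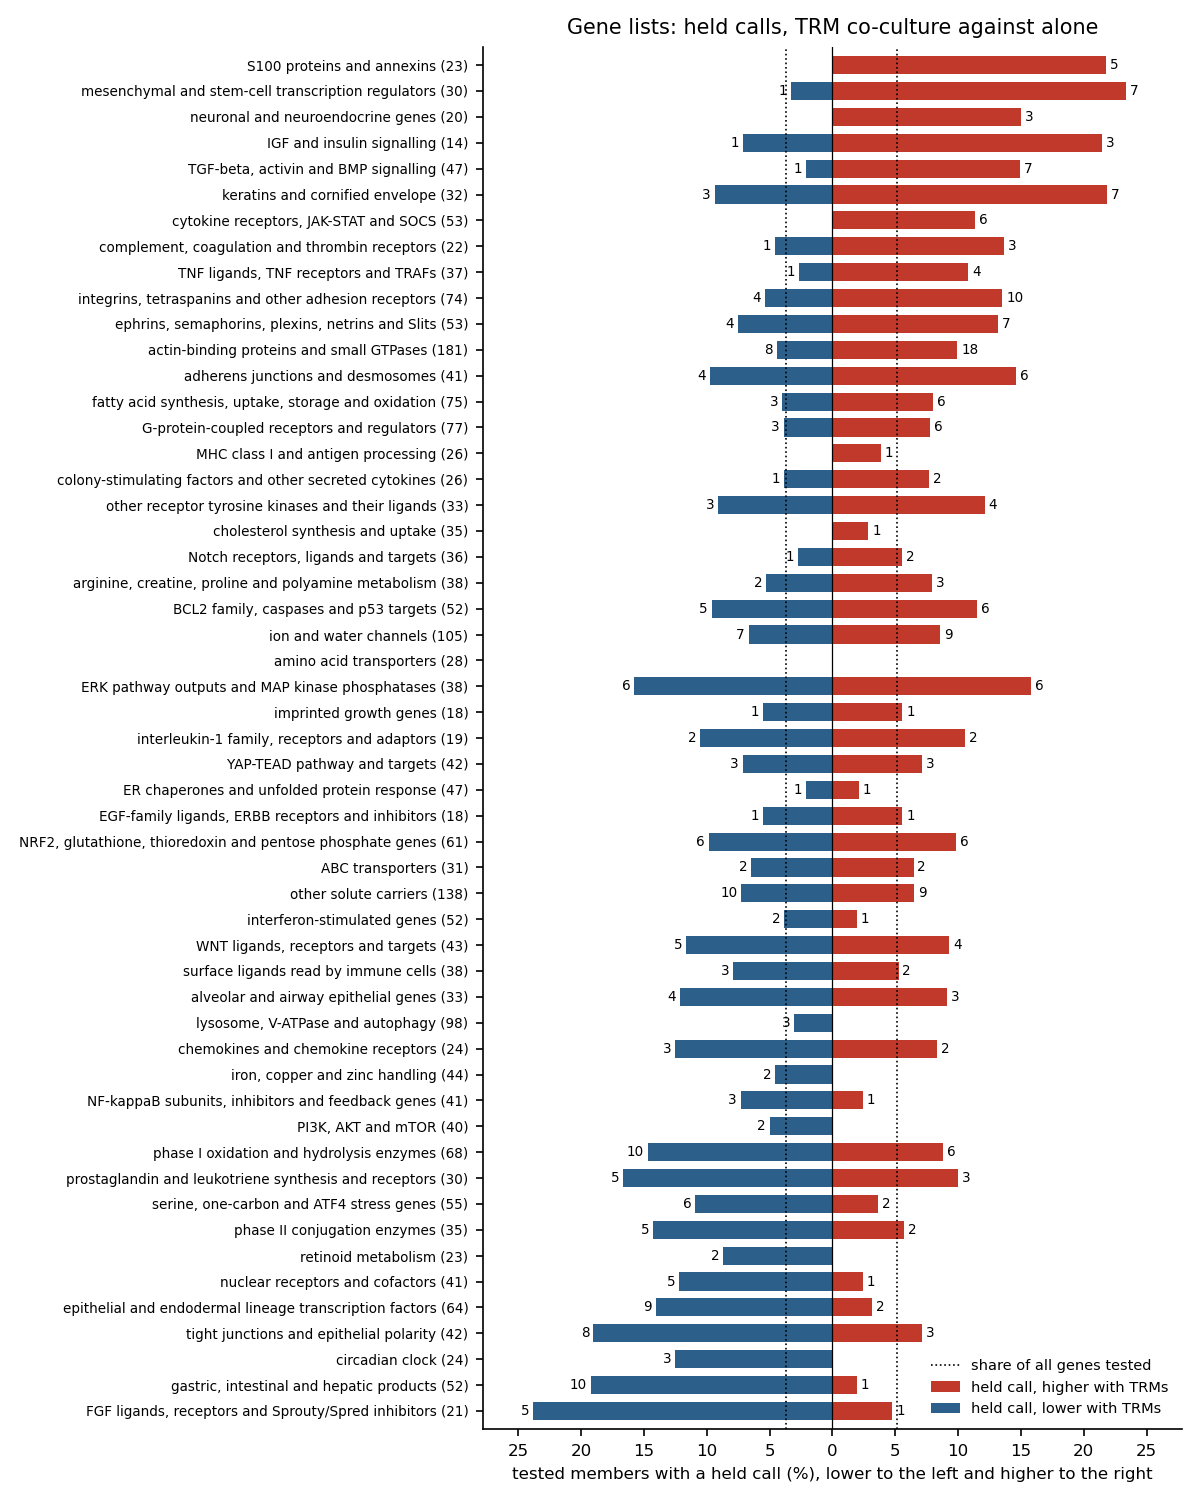
Each row is 1 of the 53 gene lists described, with the number of tested members in brackets. Bars give the percentage of tested members with a held call higher with TRMs (red, to the right) or lower (blue, to the left), with the count beside the bar, and dotted lines mark 5.17% and 3.71%, the shares over all genes tested. FGF and Sprouty genes, gut and liver products and tight junction genes lie at the lower end, and annexins and mesenchymal regulators at the upper end.

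Ion and water channels had 9 risen and 7 fallen of 105. Besides Aqp8 and Aqp1, the glycerol and water channel Aqp3 was at 3.86, 4.42 and 5.06 CPM alone against 20.6, 29.1 and 18.2 CPM with TRMs (5.02-fold higher, limma adjusted p = 4.55e-05). The calcium-activated potassium channel Kcnn4 was at 69.6, 70.1 and 55.5 CPM alone against 226, 219.9 and 159 CPM with TRMs (3.08-fold higher, limma adjusted p = 0.000148), the potassium channel Kcnh2 was 9.1-fold higher, and the chloride channel Ano1 2.29-fold higher. The epithelial potassium channel Kcnk5 was at 61.6, 55.4 and 70.3 CPM alone against 20.9, 18.3 and 12.2 CPM with TRMs (3.72-fold lower, limma adjusted p = 6.79e-05). The sodium channel subunit Scnn1a (2.76-fold lower), the sodium pump subunit Atp1b1 (5.12-fold lower, overlapping Nme7) and the calcium sensor Stim1 (1.94-fold lower) fell. Among 77 G-protein-coupled receptors and regulators, the adhesion receptor Adgra1 (6.31-fold higher) and the regulator Rgs12 (2.35-fold higher) rose, and Gpr55 (6.77-fold lower) and the lysophosphatidic acid receptor Lpar6 (2.26-fold lower) fell with Paqr8. The list had 6 risen and 3 fallen.

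Amino acid transporters were the list with no held call among 28 tested members (1 was called higher and 3 lower by limma). The glutamine carrier Slc38a2 was at 819, 1757 and 1089 CPM alone against 528, 924 and 782 CPM with TRMs (limma adjusted p = 0.0831), and the taurine carrier Slc6a6 at 378, 355 and 459 CPM alone against 272, 418 and 421 CPM with TRMs (limma adjusted p = 0.696). Among 138 other solute carriers 9 rose and 10 fell. The sulfate carrier Slc26a2 was at 137, 107 and 129 CPM alone against 43.6, 28.6 and 35.4 CPM with TRMs (3.51-fold lower, limma adjusted p = 4.63e-05). The sodium-potassium-chloride carrier Slc12a2 fell 1.86-fold and the creatine carrier Slc16a12 9.71-fold. The sodium-proton exchanger Slc9a2 (2.87-fold higher), the glucose-6-phosphate carrier Slc37a4 (2.52-fold higher) and the glucose importer Slc2a1 (3.38-fold higher, also in the glycolysis list) rose. In the metal list the iron exporter ferroportin (Slc40a1), at 185, 145 and 185 CPM alone against 87.6, 58 and 74.3 CPM with TRMs (2.36-fold lower, limma adjusted p = 0.00182), and Slc39a8 fell, 2 of 44, and none rose.

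Enzymes that process foreign compounds and hormones formed 2 lists. Of 35 phase II conjugation enzymes 5 fell and 2 rose, and the median log2 difference was -0.66. Gstm1, a glutathione transferase, was at 633, 526 and 578 CPM alone against 129, 93.6 and 79.7 CPM with TRMs (log2 -2.55, SE 0.20, 95% interval -2.97 to -2.13, limma adjusted p = 3.11e-06). Gstm2 was at 55.4, 31.4 and 50.8 CPM alone against 10.7, 8.81 and 8.41 CPM with TRMs (4.81-fold lower, limma adjusted p = 0.00141). Gstm3 was at 22.3, 15.1 and 22 CPM alone against 7.23, 5.75 and 3.44 CPM with TRMs (3.73-fold lower, limma adjusted p = 0.00287). The 3 genes are neighbours on the minus strand of chromosome 3 (GENCODE M21 on GRCm38), Gstm3 at chr3:107963696-107969283, Gstm2 at chr3:107981702-107986453 and Gstm1 at chr3:108012255-108017973, and share exon sequence, so that reads may be split between them. Gsta4, which clears the lipid peroxidation product 4-hydroxynonenal, was 3.56-fold lower. Ugt2b34, a glucuronosyltransferase, was at 32.9, 33.5 and 31.9 CPM alone against 1.78, 1.27 and 0.183 CPM with TRMs (2539 reads over the group alone and 53 with TRMs, limma adjusted p = 0.000116). Gsto2 (3.62-fold higher) and the sterol sulfotransferase Sult2b1 (2.03-fold higher) rose.

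Of 68 phase I enzymes 10 fell and 6 rose. Cyp1b1, which oxidises polycyclic hydrocarbons and oestrogens, was at 505, 407 and 474 CPM alone against 212, 167 and 187 CPM with TRMs (2.45-fold lower, limma adjusted p = 7.03e-05). Cyp2c65, an intestinal arachidonate oxidase with a near copy in Cyp2c66, was at 22.4, 12.9 and 20.7 CPM alone against 1.16, 0.56 and 0.102 CPM with TRMs (1476 reads over the group alone and 29 with TRMs, limma adjusted p = 0.000722). Cyp3a13 (2.95-fold lower), Cyp2s1 (3.04-fold lower) and the fatty aldehyde dehydrogenase Aldh3a2 (2.26-fold lower) fell as well. Aldo-keto reductases of 1 gene cluster parted: Akr1c19 was at 72, 61.3 and 63.9 CPM alone against 11, 7.69 and 5.6 CPM with TRMs (8.4-fold lower, limma adjusted p = 0.000444), Akr1c18, which inactivates progesterone, was 19.5-fold higher and Akr1c13 3.1-fold higher. Akr1c13 shares sequence with Akr1c12, and Aldh3b2 (9.88-fold higher) with Aldh3b3. Cytidine deaminase (Cda) rose 2.73-fold. In the retinoid list the alcohol dehydrogenase Adh7 (8.58-fold lower) fell with Rbp4, 2 of 23, and none rose. Of 31 ABC transporters the drug exporter Abcb1a, which shares sequence with Abcb1b, was at 12.3, 7 and 8.37 CPM alone against 39.5, 73.6 and 64.2 CPM with TRMs (6.37-fold higher, limma adjusted p = 4.14e-05), Abcd4 rose 2.2-fold, and Abcc3 fell 1.76-fold with Abcc4.

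Antioxidant genes moved both ways, 6 risen and 6 fallen of 61, with a median log2 difference of 0.113. Nfe2l2, which encodes NRF2, the main activator of these genes, was at 299.9, 288 and 294 CPM alone against 189.7, 175 and 211 CPM with TRMs (1.54-fold lower, limma adjusted p = 0.00317). Its inhibitor Keap1 was at 59.5, 55 and 59.5 CPM alone against 101, 105 and 96.6 CPM with TRMs (1.74-fold higher, limma adjusted p = 0.00215). Gclc, the catalytic subunit of glutathione synthesis, was at 299, 376 and 307 CPM alone against 153, 130.2 and 133 CPM with TRMs (2.35-fold lower, limma adjusted p = 0.000121). Gclm (1.57-fold lower), Osgin1 (2.17-fold lower) and catalase (Cat, 1.77-fold lower) also fell. Whether NRF2 had a part in any of these differences was not tested. The peroxiredoxins Prdx2 (1.59-fold higher), Prdx4 (1.96-fold higher) and Prdx5 (2.34-fold higher, overlapping Trmt112), the peroxidase Gpx8 of the endoplasmic reticulum (2.61-fold higher) and transketolase (Tkt, 1.46-fold higher) rose.

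Osgin1 and Gclm are shown because each holds 1 of the motifs that stress-responsive factors are known to bind, and both were chosen after their values were seen. The antioxidant response element was searched as TGACNNNGC on both strands, a motif that can overlap an AP-1 match. Osgin1 (chr8:119436897-119437146, plus strand) has the AP-1 motif 97 to 91 bases before the start, and Gclm (chr3:122245307-122245556, plus strand) the antioxidant element 134 to 126 bases before the start, read on the opposite strand (RefSeq, GRCm38.p6, matches in capitals).
Osgin1: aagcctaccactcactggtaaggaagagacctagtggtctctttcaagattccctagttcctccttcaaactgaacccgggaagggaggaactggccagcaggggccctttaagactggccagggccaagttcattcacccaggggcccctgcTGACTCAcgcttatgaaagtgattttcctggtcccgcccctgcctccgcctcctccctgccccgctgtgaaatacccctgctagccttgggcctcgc
Gclm: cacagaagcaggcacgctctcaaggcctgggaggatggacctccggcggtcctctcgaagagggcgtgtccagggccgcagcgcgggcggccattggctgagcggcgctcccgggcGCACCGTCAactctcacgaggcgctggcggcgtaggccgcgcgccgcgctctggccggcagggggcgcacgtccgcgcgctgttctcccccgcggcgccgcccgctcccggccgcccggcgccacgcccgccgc
The antioxidant element stood in 15.9% of the promoters of fallen genes, 13.9% of risen genes and 14% of all genes tested.

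Amino acid and stress metabolism gave smaller groups. Of 38 genes of arginine, creatine, proline and polyamine metabolism 3 rose and 2 fell. Argininosuccinate synthase (Ass1), which shares sequence with the processed pseudogene Gm5424, was at 16.4, 9.85 and 12.1 CPM alone against 48, 35.8 and 29.99 CPM with TRMs (2.98-fold higher, limma adjusted p = 0.001). The creatine-forming amidinotransferase Gatm was at 11, 23.1 and 18.9 CPM alone against 51.8, 56.8 and 64.1 CPM with TRMs (3.4-fold higher, limma adjusted p = 0.000229). Spermine oxidase (Smox) was 2.37-fold higher. The polyamine transporter Atp13a3 (1.67-fold lower) and the alanine aminotransferase Gpt2 (2.11-fold lower) fell. In the list of serine, one-carbon and ATF4 stress genes 6 of 55 fell and 2 rose: the stress kinase Eif2ak3 (PERK) was at 97.6, 126 and 175 CPM alone against 47.4, 54.7 and 48.5 CPM with TRMs (2.58-fold lower, limma adjusted p = 0.00195), and Atf3 (1.94-fold lower), Trib1 (1.75-fold lower), Wars (1.62-fold lower), Chac1 (3.43-fold lower) and Shmt1 (1.78-fold lower) fell. The mitochondrial folate enzyme Mthfd1l (3.73-fold higher) and the lipoprotein receptor Vldlr (1.98-fold higher) rose. Of 47 ER chaperone and unfolded protein genes Herpud1 fell (2.19-fold lower) and the disulfide isomerase P4hb rose (1.56-fold higher), below the share of all genes in both directions.

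Lipid and lysosomal genes were considered next. Of 75 fatty acid genes 6 rose and 3 fell (4 and 5 with library totals). The acyl-CoA thioesterase Acot7 was at 106, 105 and 109.5 CPM alone against 222, 256 and 234 CPM with TRMs (2.22-fold higher, limma adjusted p = 4.76e-05), and the lipid droplet protein Plin2 (1.79-fold higher), Acads (1.69-fold higher) and Fads3 (1.68-fold higher) rose. The peroxisomal oxidase Acox2 (3.71-fold lower), the mitochondrial acetyl-CoA synthetase Acss1, at 15.8, 13.4 and 21.1 CPM alone against 3.79, 1.5 and 0.998 CPM with TRMs (9.22-fold lower), and the elongase Elovl6 (2.43-fold lower) fell. Of 35 cholesterol genes the lysosomal carrier Npc2 alone had a held call (1.75-fold higher). The lysosome and autophagy list had 3 fallen and no risen members of 98, close to or below the shares of all genes, with Ctsa (1.68-fold lower, overlapping Pltp), Atp6v1h (1.52-fold lower) and Gabarapl1 (1.56-fold lower).

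Cell death and p53-related genes moved both ways, 6 risen and 5 fallen of 52 (4 and 5 with library totals). The survival gene Bcl2 was at 63.4, 64.3 and 70.2 CPM alone against 32.6, 31.4 and 41.5 CPM with TRMs (1.89-fold lower, limma adjusted p = 0.00115). The pro-apoptotic relative Bok was at 93, 101 and 79.6 CPM alone against 275, 213 and 205 CPM with TRMs (2.53-fold higher, limma adjusted p = 0.000146), and Bcl2l15 was 7.6-fold higher. Phlda3, a p53 target and AKT inhibitor, rose 3.22-fold, and the mTOR inhibitor Ddit4 was 2.47-fold higher. Trp53inp1 (2.63-fold lower), Btg2 (2.03-fold lower) and Plk2 (2.06-fold lower), which are also known p53 targets, fell. The 18 imprinted growth genes gave 1 in each direction, the growth-restraining zinc finger factor Plagl1, at 47.1, 31.8 and 44.5 CPM alone against 5.98, 8.34 and 6.7 CPM with TRMs (5.84-fold lower, limma adjusted p = 0.000116), and Nap1l4 (1.55-fold higher). Neuronal and neuroendocrine genes had 3 risen of 20 and none fallen. Ptprn, a protein of secretory granules, was at 3.77, 20.7 and 6.65 CPM alone against 67.4, 104 and 72.1 CPM with TRMs (9.91-fold higher, limma adjusted p = 0.000396), the neuronal tubulin Tubb3 was 3.95-fold higher, and the neuroendocrine factor Insm1 1.89-fold higher.

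Finally, values with TRMs were set beside those with monocytes, to see where the kind of added cell mattered. Both co-cultures are compared with the same libraries alone, so their differences from alone are not independent. Of the 1094 genes with a held call with TRMs against alone, 891 also had a held call with monocytes against alone, in the same direction. The shared libraries alone favour such overlap. Most differences described above were thus not particular to TRMs by this count. Between the co-cultures limma called 40 genes higher with TRMs (0.325% of those tested) and 9 lower (0.073%). Of these none had a held call, edgeR called 44 genes in all, and 1437 had an unadjusted limma p under 0.05. Among genes with small p-values against alone, Spry1 was at 102, 96 and 158 CPM with monocytes (limma adjusted p = 0.507 between the co-cultures), Tfcp2l1 at 33.1, 24.9 and 43.4 CPM (adjusted p = 0.628), Add2 at 131, 149 and 118 CPM (adjusted p = 0.641) and Aqp8 at 43.6, 38.1 and 30.1 CPM (adjusted p = 0.806). A p above the threshold does not show that the co-cultures acted alike. Of the 269 named genes with a held call against alone, 11 were called between the co-cultures. The same TRM libraries served to choose the named genes and to compare the co-cultures. These comparisons are therefore not independent, and TRM values extreme by sampling would favour a call in both. Il1a was at 76.9, 109.8 and 106 CPM with monocytes, so that every TRM library lay more than 2 times as high as any monocyte library (log2 1.32, SE 0.15, limma adjusted p = 0.00573). Ass1 was at 9.86, 13 and 15.8 CPM with monocytes, within the range seen alone (limma adjusted p = 0.0241 between the co-cultures). Ret, at 47.2, 35.8 and 51.3 CPM, and Vldlr, at 21.2, 29.8 and 33.1 CPM, likewise overlapped the values alone.

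**Figure D5:**
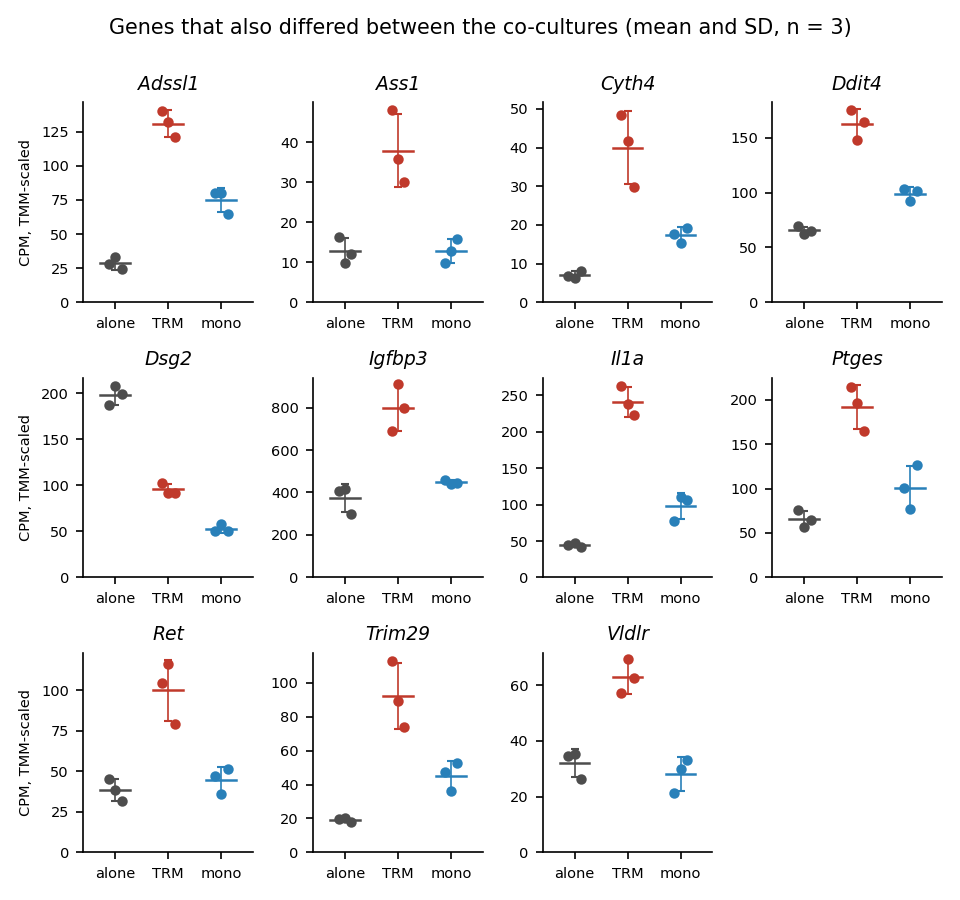
The 11 named genes that differed from alone and were also called between the co-cultures, with the value in CPM of each library alone (grey), with TRMs (red) and with monocytes (blue), and the mean and SD of 3 libraries. TRM points lie above monocyte points in every panel, and in Ass1, Igfbp3, Ret and Vldlr the monocyte points overlap or come close to those alone. The same TRM libraries also served to choose the named genes.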

How the data were processed

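RNA-seq values of 12339 genes in 9 libraries were used. The deposited signal of each gene is, by its values, a whole number of reads plus 0.5 over the scaled library size, that is, a TMM-scaled CPM made by the authors. All 111051 values gave whole reads within 1e-06. STAR 2.5, edgeR and mm10 are named per the submitters' processing notes. No label names the counting tool, its strand setting or the annotation. The authors' tables of their own comparisons were not used.

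Log2 of the deposited values was fitted with limma 3.58.1 (R 4.3.3, group means of all 9 libraries, variance trend, 6 residual degrees of freedom, two-sided, Benjamini-Hochberg adjustment) after a filter (filterByExpr, minimum count 10, total 15) that removed 13 genes. The script was tested on simulated data. A held call needs an adjusted p under 0.05 in the full fit, in each of 9 fits without 1 library and, in the same direction, with edgeR 4.0.16 (quasi-likelihood) on whole reads. Alternatives included DESeq2 1.42.0, log2(value + 1), other filters, library totals and a fit of the 6 compared libraries.

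Named genes are held calls outside the 4 lists set aside (the 12 smallest p-values and 6 largest folds per direction, mean of at least 10 in the higher group), plus up to 4 per list and direction (mean of at least 5). Genes named through a described list can also stand in a list set aside. Where a list had none, its 2 members with the highest mean are given as values. These rules name 271 genes, of which several are not reported here. A further 51, among them markers, were added after their values were seen. The comparison, lists and rules were chosen with earlier results of these data known. Positions are from GENCODE M21 (GRCm38), where 12294 gene names matched. Of the 271 named genes 135 matched another annotated gene on either strand in at least 2 short sampled stretches of sequence. Such stretches can repeat each other or lie apart. Reads of these genes may be split or joined, and some of the genes are marked in the text. Figures were drawn with matplotlib 3.10.9 in Python 3.11.15.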

Additional observations from a re-analysis of the deposited data

Results flagged for a closer look

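The following 11 genes had a held call against tumour cells alone and were also called by limma between the TRM and the monocyte co-culture. The same TRM libraries entered both comparisons, so the calls are not independent. None of these differences between the co-cultures had a held call: without 1 or more single libraries the adjusted p of each rose above 0.05. All differences are log2, TRM minus monocyte, over 3 libraries each, and in all 11 genes the 3 TRM libraries lay above the 3 monocyte libraries.

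In signalling, the cytokine Il1a differed by 1.32 (SE 0.15), the prostaglandin synthase Ptges by 0.95 (SE 0.18), the receptor Ret by 1.16 (SE 0.20), the IGF-binding protein Igfbp3 by 0.83 (SE 0.15) and the ARF exchange factor Cyth4 by 1.18 (SE 0.22). In metabolism and stress, Ass1, which makes argininosuccinate, differed by 1.56 (SE 0.26), the purine enzyme Adssl1 by 0.81 (SE 0.16), the lipoprotein receptor Vldlr by 1.19 (SE 0.19) and the mTOR inhibitor Ddit4, a known hypoxia-responsive gene, by 0.71 (SE 0.13). The squamous protein Trim29 differed by 1.02 (SE 0.19). The desmosomal cadherin Dsg2 differed by 0.86 (SE 0.13), and it was lowest with monocytes (50.1, 57.8 and 50.1 CPM), between them and alone with TRMs, and highest alone. Limma adjusted p-values lay between 0.00573 for Il1a and 0.0454 for Ptges.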

How the results depend on the processing

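Leaving out 1 library at a time gave 1219 to 2593 calls against tumour cells alone, 671 to 1421 higher and 536 to 1172 lower. Leaving out any of 3 libraries moved a count by more than 1.5 times: without alone replicate 1 the calls were 825 higher and 617 lower, without alone replicate 3 536 were lower, and without TRM replicate 2 they were 671 higher and 548 lower. Other tools, filters, the value of 1 added before the logarithm, the 6 compared libraries alone and library totals left each count within 1.5 times, from 2183 (edgeR) to 2742 (6 libraries). Held calls were 929 to 1321 under the alternatives. Between the co-cultures the held calls were 0, also in the replicate block, 4 with log2(value + 1) and 3 with library totals. All 269 named genes with a held call, and the 43 added ones with a held call, kept their direction and their call in every alternative in which they were tested. For edgeR and the 9 fits without 1 library this was fixed in advance, since the rule for a held call requires it. Only the other alternatives could have come out otherwise, and most named genes were picked for small p-values or large folds. The main fit took no account of the replicate numbers of the labels. Deviations of same-numbered alone and TRM libraries correlated at 0.435, 0.0877 and 0.134. Alone replicates 1 and 3 correlated best with the TRM library of the same number, and alone replicate 2 with TRM replicate 3 (0.269). These values do not settle whether the numbers pair the samples. The replicate block gave 2392 calls (1320 higher, 1072 lower) and 929 held calls (536 higher, 393 lower), of which 878 were among the 1094. In the block the ephrin and guidance list had 4 risen members in place of 7, the integrin list 6 in place of 10 and the annexin list 3 in place of 5. Depth limits genes near 1 CPM, where a library holds few reads per gene.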

Other observations

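Genes with a held call were also placed along the genome, with the tested genes as neighbours (GENCODE M21, GRCm38, 12294 genes placed). There were 11 runs of at least 3 neighbouring tested genes with held calls in 1 direction, 4 higher with TRMs and 7 lower. They are a description without a test, and neighbours can share reads. Besides the Gstm genes, a run of fallen genes on chromosome 1 spanned 163.1 kb and held Pfkfb2, the deubiquitinase Yod1, AA986860 and the antibody transporter Pigr, with log2 differences of -1.65, -1.46, -2.62 and -2.76. Another on chromosome 7, 169.9 kb long, held the channel-like genes Tmc7 (log2 -2.86) and Tmc5 (log2 -2.30) and the phosphodiesterase Gde1 (log2 -0.91). On chromosome 8 Fam149a (log2 -2.51), the RNA sensor Tlr3 (log2 -1.54) and the actin adaptor Sorbs2 (log2 -1.54) fell in neighbouring positions. Runs of risen genes were the collagen-anchoring filament gene Lad1, cardiac troponin T (Tnnt2), Pkp1 and Tmem9 on chromosome 1 (log2 0.64, 2.19, 1.96 and 0.59), and Rgs12, the protease Hgfac and the muscle adaptor Dok7 on chromosome 5 (log2 1.23, 1.64 and 1.59).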
